A study of Homo sapiens with 6 samples.

Results

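Lysosomes are acidic organelles that break down proteins, lipids and sugars, and cathepsins are their main proteases. Most cathepsins are made as inactive precursors, are carried to the lysosome by mannose 6-phosphate receptors and are activated in the acidic lumen, while the heavily glycosylated membrane proteins LAMP1 and LAMP2 line the limiting membrane. In cytotoxic lymphocytes the secretory granules are lysosome-related organelles, and LAMP1 reaches the cell surface when such granules are released. The genes described here are 8 cathepsins (CTSA, CTSB, CTSC, CTSD, CTSL, CTSS, CTSW and CTSZ) and the membrane proteins LAMP1 and LAMP2, which are 10 of the 33644 genes of the table analysed. They were taken by name, and all 10 matched a row.

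The labels describe 3 samples of an alt-LAMA3 knockout line derived from HEK293T, and 3 samples of the HEK293T parent, labelled WT, all at day 0 and with no treatment. HEK293T is an established line of human embryonic kidney origin that expresses the SV40 large T antigen. The labels do not say how the knockout was made, whether the line is 1 clone, or whether the samples were separate cultures. P-values may therefore measure only technical spread. The table holds 1 comparison between 2 groups that its header does not name and no value per sample. A positive log2 fold change means a higher level in what is called here the numerator group than in the denominator group, and neither can be equated with the knockout or the parent.

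The content of the table went against the labels, and the table cannot be tied to the labelled samples. Means that many genes share, as when 1 read falls in 1 library, took 9 values, although the labels list 6 samples. For 3 of these values the genes were higher in the numerator group, for 3 they were lower and for 3 the log2 fold change was 0. The means given below may therefore include libraries that belong to neither group compared. A mean normalized count of 72.0, or 5 in every 1000000 of the sum over genes, serves below as a lower limit of clear expression. None of 13 HEK293 markers reached it, and their highest mean was 7.94. By contrast, 13 of 16 T-lymphocyte markers reached it, with a median of 1390 and IL2RA, CD8A and CD247 as the highest. Cathepsins are abundant in macrophages and dendritic cells. Here 0 of 12 monocyte and macrophage markers and 0 of 7 dendritic cell markers reached 72.0, with SPI1, MSR1 and S100A8 listed at 0. The highest of the 12 were FCGR3A at 61.6, CSF1R at 20.7 and LYZ at 4.06. These counts hold only for the genes written into the marker lists. CD68, a lysosomal membrane protein also used as a macrophage marker, was not among the 12 and had a mean of 103. A low value may not hold all reads of a gene, as described below for ribosomal proteins. B-cell markers summed to 52.0 over 8 genes and fibroblast markers to 136 over 8 genes, against 97546 over the 16 T-lymphocyte markers.

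The catalytic centres of the cysteine cathepsins and the sorting tails of the LAMP proteins are shown first, since they define what kind of protein each gene encodes. CTSB, CTSC, CTSL, CTSS, CTSW and CTSZ are cysteine proteases of the papain family. The stretch of 30 coding bases around the active-site cysteine codon, which is in capitals, reads as follows in GENCODE 29 transcripts on GRCh38 for the 5 of them that are shown.
CTSS: tcttgtggtgctTGCtgggctttcagtgct
CTSC: tcctgtggcagcTGCtactcatttgcttct
CTSL: cagtgtggttctTGTtgggcttttagtgct
CTSW: aactgcaactgcTGCtgggccatggcagcg
CTSZ: tactgcggctccTGCtgggcccacgccagc
A tryptophan codon (tgg) follows the cysteine codon in CTSS, CTSL, CTSW and CTSZ, whereas CTSC has a tyrosine codon (tac) there. CTSD is instead an aspartic protease and CTSA a serine carboxypeptidase. The LAMP proteins end in a short cytosolic tail whose tyrosine, the codon in capitals 4 codons before the stop, is part of the signal that sends them to the lysosome. LAMP2 is made in 3 splice forms that differ in this tail, and the form called LAMP2A serves chaperone-mediated autophagy. The last 30 coding bases show the differences.
LAMP2A: caccatcatgctggaTATgagcaattttag
LAMP2B: aaaagttatgctggaTATcagactctgtaa
LAMP2C: aaaagtcgtactggtTATcagtctgtgtaa
LAMP1: aggagtcacgcaggcTACcagactatctag
The table gives 1 value per gene, so that the 3 forms of LAMP2 cannot be told apart in it.

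The levels of the 10 genes spanned a wide range, with LAMP2 highest and CTSL lowest. In the authors' deposited table LAMP2 had a mean normalized count of 5788 over all libraries, CTSC 2761, CTSB 1353 and CTSS 1295. CTSD, CTSW and CTSA followed at 411, 170 and 79.9 in the authors' deposited table, and LAMP1, CTSZ and CTSL lay below 72.0, at 60.4, 6.90 and 0.370. Thus 7 of the 10 genes reached that level. These means pool the groups, so that no spread between samples can be given for any of them.

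Levels were compared between genes per kilobase of the longest protein-coding transcript. On that scale LAMP2 stood at 1436 mean normalized counts per kilobase, above 96.8% of protein-coding genes with a mean above 0. CTSC stood at 451 per kilobase, CTSB at 349 and CTSS at 315, so that the last 2 differed by a factor of 1.11. CTSD reached 193 per kilobase, CTSW 127, CTSA 37.2 and LAMP1 22.4, with CTSZ at 4.62 and CTSL at 0.170. LAMP2 was thus 64.1 times as high as LAMP1 per kilobase, and 99.4 times with the length of all exons of each gene. This ratio is subject to the limit on levels of single genes given further below. With the length of all exons of each gene in place of the transcript, CTSS came second at 306 per kilobase, before CTSC at 242 and CTSB at 182, and the other 7 genes kept their places. The order of CTSC, CTSB and CTSS therefore depends on the length used.

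**Figure D1:**
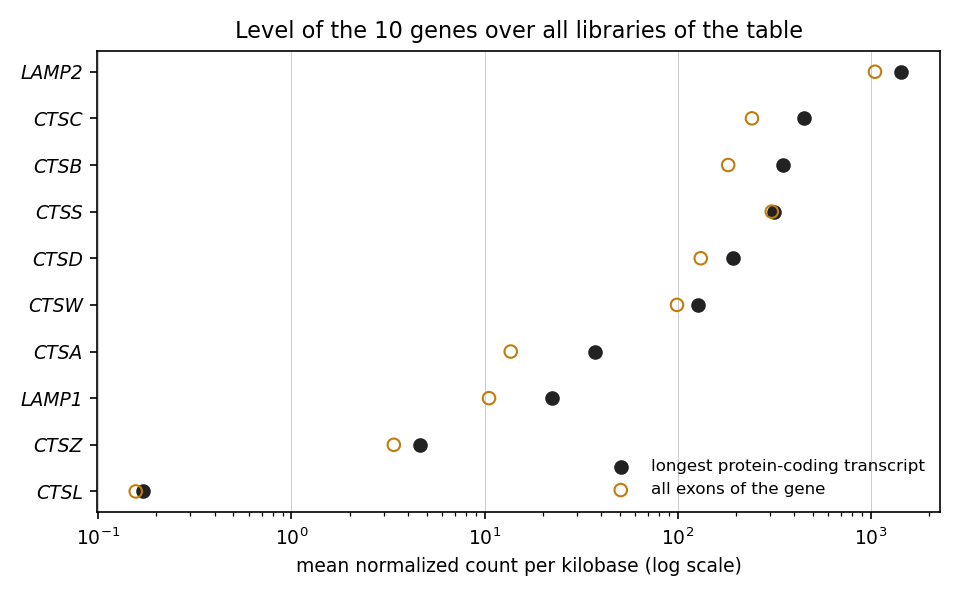
Mean normalized count per kilobase of the 10 genes on a log axis, over all libraries of the table. Filled points use the longest protein-coding transcript and open points the length of all exons. LAMP2 lies highest under both, and CTSS comes after CTSC and CTSB under the first and before them under the other.

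CTSL, a cysteine endopeptidase that other cells hold in quantity, was close to the lowest level that the table can show. At the values that 1 read has in the libraries, from 0.0586 to 0.147, its mean of 0.370 corresponds to between 2.52 and 6.31 reads in all libraries together. It had no adjusted p, and its log2 fold change of -1.20 has a standard error of 4.08 in the authors' deposited table, so that no change could be measured. CTSL has pseudogenes in the genome, and 5 of the 6 found in the table were listed at 0, while CTSLP3 had a mean of 0.760 in the authors' deposited table. The sources used here do not say how reads were divided between such copies. CTSZ, a carboxypeptidase, had a mean that corresponds to between 47.0 and 118 reads in all libraries together.

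The level of a single gene may not hold all of its reads. Among 17 listed subunits of the V-ATPase proton pump, levels ran from 2.30 per kilobase for ATP6V1G1 to 1140 for ATP6AP2. Among 73 genes of cytosolic ribosomal proteins, which are needed in like amounts, 14 stood more than 10-fold below their median of 2465 per kilobase, with RPL3 at 122 and RPL4 at 16365 per kilobase. Over protein-coding genes with a mean above 0, split by GC content into 8 classes of like size, the median level was 10.9 per kilobase in the most GC-rich class (61.2% to 76.0%) and 54.5 in the most AT-rich class (30.2% to 39.4%). LAMP2 (37.7% GC), CTSC (38.2%) and CTSS (39.5%) are AT-rich and among the 4 highest members, while CTSA (57.7%), CTSZ (58.3%) and LAMP1 (55.2%) are GC-rich and among the 4 lowest. Other members did not follow this order. CTSD, at 64.0% GC, stood at 193 per kilobase and CTSW, at 59.0% GC, at 127, while CTSB (52.8%) and CTSL (52.5%) have nearly equal GC content and lay at 349 and 0.170. The part of GC content in these levels was not tested. Overlap with other genes touched 52.7% of the exon bases of CTSD, on both strands, and 28.5% of those of CTSA, through NEURL2, PLTP and a non-coding gene on the opposite strand. CTSW shared 1 base, and the remaining 7 genes shared none. Reads in the shared bases cannot be assigned with certainty, since the sources used here give neither the counting rule nor its use of strand.

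**Figure D2:**
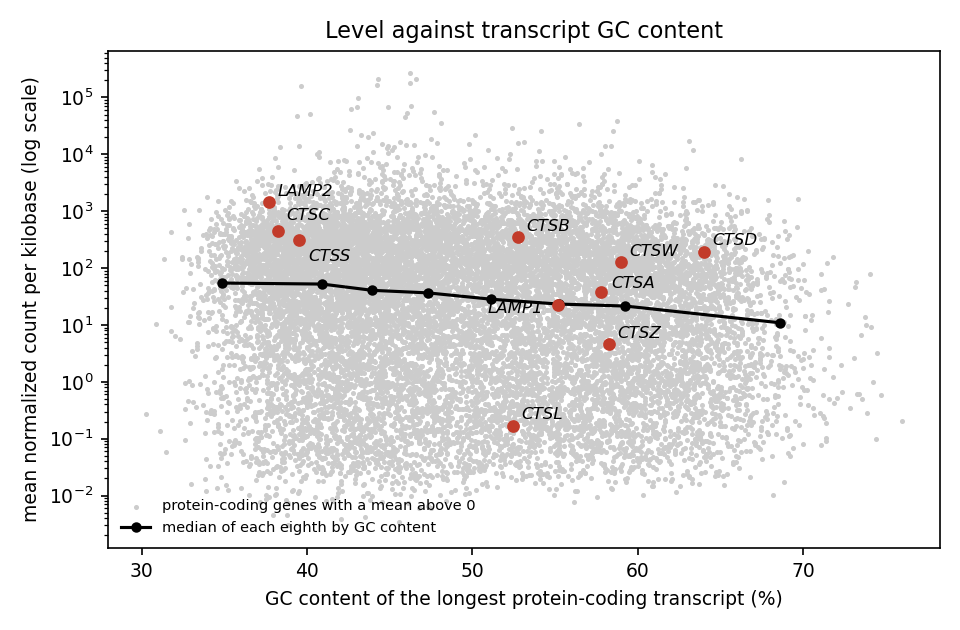
Mean normalized count per kilobase (log axis) against the GC content of the longest protein-coding transcript, with the 10 genes in red, other protein-coding genes in grey and the median of each of the 8 GC classes in black. LAMP2, CTSC and CTSS lie above the median at the AT-rich side, and LAMP1 lies close to it at 55.2% GC.

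Between the groups, the 2 members with the highest mean normalized counts were slightly higher in the numerator group. The next 2 by that count were clearly lower. Of the 9 members with an adjusted p, 2 rose (CTSC and LAMP2), 2 fell (CTSB and CTSS) and 5 did not pass the threshold of 0.05. Over all 13957 genes tested, 29.5% passed, with 14.7% higher and 14.8% lower. Of the 8312 genes tested with a mean of at least 72.0, 42.6% passed, 21.0% higher and 21.6% lower, and 4 of the 7 members at that level did. Among the 2310 genes with a mean at least that of CTSS, the lowest of the 4, the share that passed was 62.7%, with 31.2% higher and 31.5% lower, and all 4 members at that level passed. The count of members is too small to be read as different from that share. The median log2 fold change of the 9 tested members was -0.52, against 0.00 over all genes tested. In these bulk libraries, fewer cells of a type and less RNA per cell cannot be told apart.

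CTSB, a cysteine protease that acts both as an endopeptidase and on the ends of proteins, had the largest change that passed. The gene (ENSG00000164733.20) occupies bases 11842524 to 11869448 of chromosome 8, minus strand (GRCh38, GENCODE 29). The authors' deposited table gave CTSB a log2 fold change of -0.93 with an SE of 0.07 (adjusted p = 7.61e-34), so that its level in the numerator group was 0.526 times that in the denominator group (95% interval 0.476 to 0.582). This change exceeded that of 80.0% of the genes tested. CTSB was also the only member to pass a test against a change of 1.5-fold (adjusted p = 0.000167).

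CTSS, a cysteine protease that stays active at neutral pH and cleaves the invariant chain of MHC class II molecules in antigen-presenting cells, fell as well. The gene (ENSG00000163131.10) occupies bases 150730196 to 150765957 of chromosome 1, minus strand. For CTSS the authors' deposited table had a log2 fold change of -0.70 with an SE of 0.08 (adjusted p = 6.29e-16), which is a level of 0.615 times that in the denominator group (95% interval 0.550 to 0.688). CTSS did not pass against 1.5-fold (adjusted p = 1). The T-lymphocyte markers moved the same way as CTSB and CTSS, with 10 of 14 tested markers lower and 0 higher in the numerator group, where 14.8% of all genes tested were lower (21.6% of those with a mean of at least 72.0). Of 5 tested monocyte and macrophage markers, 1 was higher and 2 were lower, each at a mean of at most 61.6. The part of either marker list in the change of CTSB and CTSS was not tested.

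CTSC, dipeptidyl peptidase I, which activates granzymes and other serine proteases of granules by removing their pro-dipeptide, rose. It occupies bases 88293592 to 88337787 of chromosome 11, minus strand (ENSG00000109861.15). In the authors' deposited table CTSC was at a log2 fold change of 0.24 with an SE of 0.06 (adjusted p = 0.000689), or 1.18 times the denominator group's level (95% interval 1.08 to 1.28). LAMP2, the other gene that rose, occupies bases 120427827 to 120469365 of chromosome X, minus strand (ENSG00000005893.15). The authors' deposited table gave LAMP2 a log2 fold change of 0.13 with an SE of 0.04 (adjusted p = 0.00118), a level of 1.10 times that in the denominator group (95% interval 1.05 to 1.15). Only 20.4% of the genes tested had a smaller change than LAMP2. Both calls were lost with errors widened 2.03-fold to the spread of all statistics (adjusted p = 0.343 for CTSC and 0.379 for LAMP2), with Holm adjustment and against 1.5-fold (adjusted p = 1 for each in both). CTSB and CTSS kept their calls with widened errors and with Holm adjustment.

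**Figure D3:**
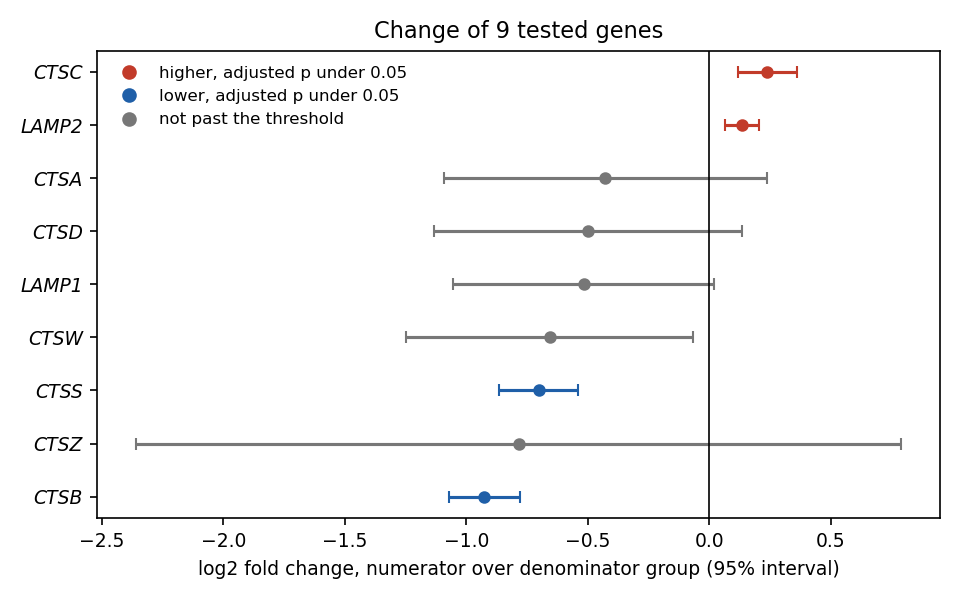
Log2 fold change of the 9 tested genes between the numerator and the denominator group, with 95% intervals. The intervals of CTSC and LAMP2 lie above 0, those of CTSB, CTSS and CTSW lie below it, and CTSW did not pass after adjustment.

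The 5 members that were tested and did not pass all had a negative log2 fold change with a wide interval. CTSW, a papain-family protease found mainly in natural killer cells and cytotoxic T cells, was, in the authors' deposited table, at -0.66 (SE 0.30, adjusted p = 0.0882). Its 95% interval, 0.421 to 0.956 times the denominator group's level, excluded 1 before adjustment over all genes. LAMP1 (ENSG00000185896.10; bases 113297241 to 113323672 of chromosome 13, plus strand) was, in the authors' deposited table, at -0.52 (SE 0.27, adjusted p = 0.154), with an interval of 0.482 to 1.01 times. CTSD, the main aspartic protease of lysosomes, was, in the authors' deposited table, at -0.50 (SE 0.32, adjusted p = 0.269), with an interval of 0.456 to 1.10 times. In the authors' deposited table CTSA, which also protects beta-galactosidase and neuraminidase in a complex, was at -0.43 (SE 0.34, adjusted p = 0.390), and CTSZ at -0.78 (SE 0.80, adjusted p = 0.536). Each of these 5 intervals holds the fold change of CTSS, 0.615. A fall of that size in them can therefore be neither shown nor set aside at this precision. Whether LAMP1 and LAMP2 changed differently was not tested, since the table gives no covariance between genes.

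The precision of these changes was uneven for the level of the genes. CTSD had a standard error of 0.32, where the median of 805 genes with a mean within a factor of 1.2 was 0.15, and 97.1% of those genes had a smaller error. CTSW was also less precise than most genes of like mean, 82.1% of which had a smaller error. LAMP1 stood at the other end, with 7.02% of genes of like mean below its error of 0.27, as did LAMP2 with 5.53%. CTSB, CTSS and CTSC lay between, with 30.7%, 44.7% and 37.9% below them. CTSD is the member with the largest share of overlapped exon bases, and the part of that overlap in its error was not tested.

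**Figure D4:**
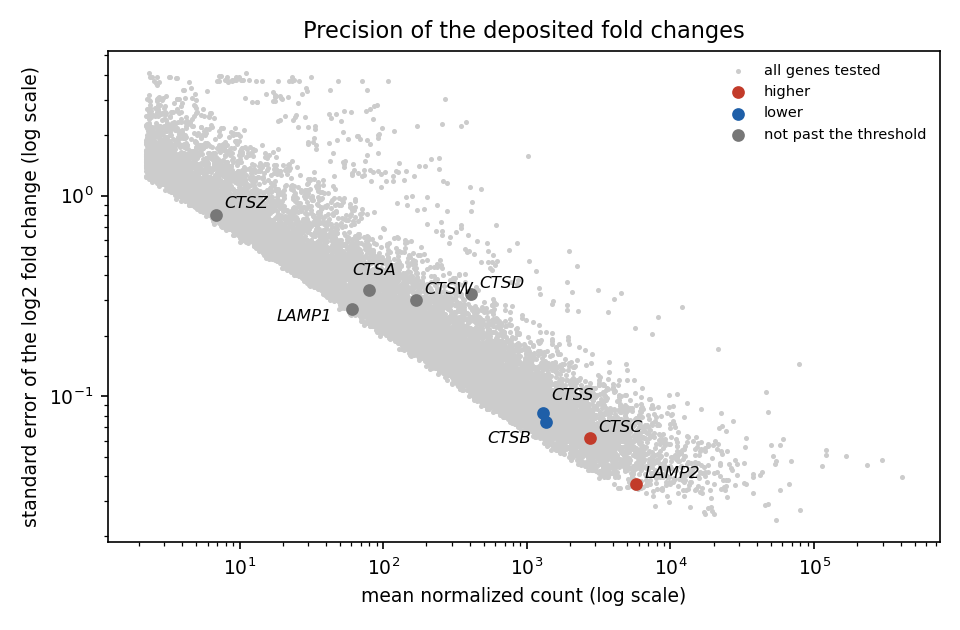
Standard error of the deposited log2 fold change against the mean normalized count, both on log axes, with all genes tested in grey and the 9 tested members coloured by their call. CTSD lies high for its mean, at a standard error of 0.32, and LAMP2 lies at the lower edge.

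Among the other cathepsins, 6 of 7 genes written down matched the table and 4 were tested, none of which passed, against 29.5% of all genes tested. CTSH, an aminopeptidase, was abundant at a mean normalized count of 1664 in the authors' deposited table and its log2 fold change was -0.03 with an SE of 0.06 (adjusted p = 0.805). CTSF, CTSK and CTSV had means of 8.10 to 10.9 in the authors' deposited table, and CTSE and the neutrophil serine protease CTSG were listed at 0. Of 5 tested cathepsin inhibitors, 1 rose and 1 fell, where 14.7% of all genes tested were higher and 14.8% lower, so that this count is no result about the list. CSTB, a cystatin that blocks papain-family cathepsins in the cytosol, fell in the authors' deposited table, at a log2 fold change of -0.69 with an SE of 0.08 (adjusted p = 2.53e-18). SERPINB6, an inhibitor of serine proteases, rose, with 1.66 in the authors' deposited table (SE 0.38, adjusted p = 0.000116). The call of SERPINB6 was lost with Holm adjustment (adjusted p = 0.193), with widened errors (adjusted p = 0.239) and against 1.5-fold (adjusted p = 0.0984).

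Among other proteins of the lysosomal membrane, 7 of 22 tested members fell, 1 rose and 14 did not pass. The shares of 31.8% lower and 4.55% higher compare with 14.8% and 14.7% of all genes tested, and the median log2 fold change was -0.20, against 0.00. OSTM1, a subunit of the chloride-proton exchanger, was, in the authors' deposited table, at -1.38 (SE 0.27, adjusted p = 2.04e-06). The same deposited table of the authors had LAPTM4B at -1.28 (SE 0.24) and CTNS, the cystine exporter, at -1.19 (SE 0.18). The count of members that fell was 5 with Holm adjustment, 3 with widened errors and 1 against 1.5-fold. With widened errors OSTM1 (adjusted p = 0.101) and LAPTM4B (adjusted p = 0.0782) did not pass. After centring on genes of like GC content, 13 of the 22 lay below 0, against 16 as deposited. The 1 that rose, TMEM106B, was listed at 0.35 in the authors' deposited table (SE 0.12, adjusted p = 0.0111). Its call was lost with widened errors (adjusted p = 0.594). CD63, a tetraspanin of late endosomes and granules, was, in the authors' deposited table, at -0.52 (SE 0.06, adjusted p = 1.79e-19), at a mean of 3741.

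Subunits of the V-ATPase, the proton pump that acidifies lysosomes, had 6 of 17 tested members lower, 0 higher and 11 that did not pass. The share lower was 35.3%, against 14.8% of all genes tested. Their median log2 fold change was -0.46, and 16 of the 17 lay below 0, against 6976 of all 13957 genes tested. The 16 was the same after centring on the median of all genes or of genes of like GC content. The count of lower subunits fell to 3 with Holm adjustment, 2 with widened errors and 1 against 1.5-fold. The authors' deposited table put ATP6V0B at -1.54 (SE 0.24, adjusted p = 4.03e-09), ATP6V0A1 at -1.26 (SE 0.23) and ATP6V1C1 at -0.85 (SE 0.20). With widened errors ATP6V0A1 (adjusted p = 0.0641) and ATP6V1C1 (adjusted p = 0.258) did not pass. The first 2 belong to the membrane sector of the pump and the third to its cytosolic sector. The list was written with earlier results of these data known, and its counts are a description.

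Soluble hydrolases other than proteases were called in both directions, as were genes at large. Of 28 tested glycosidases, sulfatases, lipases and related enzymes, 5 rose (17.9%, against 14.7% of all genes tested), 7 fell (against 14.8%) and 16 did not pass, with a median log2 fold change of -0.19. Among those that rose, FUCA1, an alpha-fucosidase, was at 1.17 (SE 0.14) and GAA, the acid alpha-glucosidase, at 0.42 (SE 0.13) in the authors' deposited table.

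A mixed list of sphingolipid activators and other lysosomal proteins, proteases among them, had 3 of 10 tested members higher and 3 lower. Over all genes tested, 14.7% were higher and 14.8% lower. SCPEP1, a serine carboxypeptidase related to CTSA, fell, with -1.05 in the authors' deposited table (SE 0.08, adjusted p = 2.55e-40). PSAP, the precursor of the saposins, fell, with -0.54 in the authors' deposited table (SE 0.14, adjusted p = 0.000925). CD74, the invariant chain that CTSS cleaves, rose, with 0.47 in the authors' deposited table (SE 0.04, adjusted p = 1.00e-36), while CTSS fell. LGMN, asparaginyl endopeptidase, was at -6.62 with an SE of 2.60 (adjusted p = 0.0388) at a mean of 59.8, and GGH at 1.61 with an SE of 0.42, both in the authors' deposited table. The call of LGMN was lost with no filter on low values (adjusted p = 0.0586), with Holm adjustment (adjusted p = 1), with widened errors (adjusted p = 0.745) and against 1.5-fold (adjusted p = 0.307). GM2A, the remaining gene that rose, was listed at 0.27 with an SE of 0.07 in the authors' deposited table. With widened errors PSAP (adjusted p = 0.363), GGH (adjusted p = 0.355) and GM2A (adjusted p = 0.37) did not pass.

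Of 18 tested genes of the machinery that carries hydrolases to the lysosome, 2 were higher and 2 lower, a share of 22.2% that lies below the 29.5% of all genes tested. IGF2R, the cation-independent mannose 6-phosphate receptor, fell, with -0.36 in the authors' deposited table (SE 0.05, adjusted p = 1.87e-13), and AP1G1, a subunit of the AP-1 adaptor, with -0.27 (SE 0.06) there. GNPTAB, which starts the mannose 6-phosphate tag, rose with 0.58 (SE 0.18) and the sorting receptor SORL1 with 1.14 (SE 0.27) in the authors' deposited table. With widened errors AP1G1 (adjusted p = 0.207), GNPTAB (adjusted p = 0.538) and SORL1 (adjusted p = 0.25) did not pass, nor did they with Holm adjustment. IGF2R passed both (adjusted p = 0.00267 with widened errors). Of 14 tested transcription factors of the MiT/TFE family and regulators of the mTORC1 branch that controls them, 2 rose (14.3%, against 14.7% of all genes tested) and 0 fell. These were, in the authors' deposited table, TFEC at 1.08 (SE 0.14, adjusted p = 5.84e-13) and RPTOR at 0.31 (SE 0.11, adjusted p = 0.0284). The call of RPTOR was lost with widened errors (adjusted p = 0.708) and with Holm adjustment. TFEB and TFE3, the best-known activators of lysosomal genes, were at -0.20 (SE 0.54) and 0.04 (SE 0.17) in the authors' deposited table and did not pass. Over the 8 companion lists together, 14 of 118 tested genes rose (11.9%, against 14.7% of all genes tested) and 26 fell (22.0%, against 14.8%), with a median log2 fold change of -0.18.

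**Figure D5:**
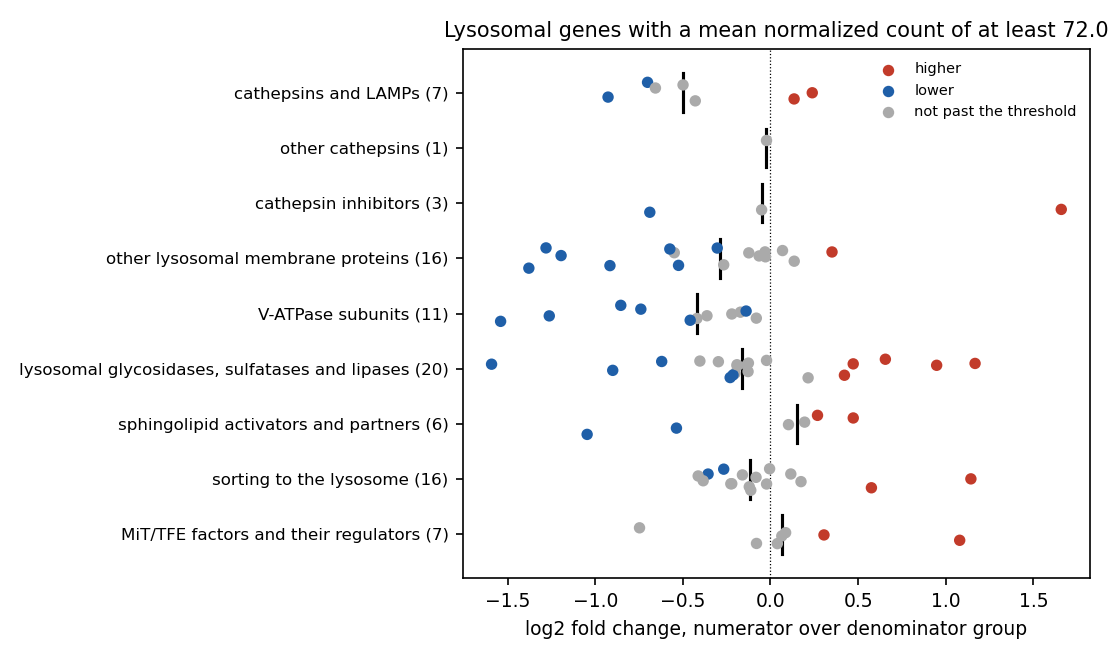
Log2 fold change of each lysosomal gene whose mean normalized count reached 72.0, by list, with the number of genes in brackets and the median as a black bar. Every V-ATPase subunit shown lies below 0, whereas the glycosidases, sulfatases and lipases spread to both sides.

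TFEB and TFE3 bind DNA at E-boxes, and many lysosomal genes carry the letters CACGTG near their start, often within TCACGTGA. RefSeq promoters (GRCh38.p14, 300 bases, of which 250 lie before the start site) matched 6 of the 10 genes: CTSA, CTSC, CTSD, CTSL, CTSZ and LAMP1. Both words read the same on both strands, and each TCACGTGA holds a CACGTG. The word CACGTG was found 6 times in the LAMP1 promoter, 2 times in that of CTSA and 1 time in that of CTSD, and 0 times in those of CTSC, CTSL and CTSZ. Of 27305 promoters of that length, 7.43% held the word at all and LAMP1 was the only 1 with 6. TCACGTGA occurred 2 times in LAMP1 and 1 time in CTSA, against 1.04% of all promoters with at least 1. The LAMP1 sequence is shown because it holds the most matches, as the 250 bases before the start site at chr13:113296989-113297238 on the plus strand, with CACGTG in capitals.
LAMP1: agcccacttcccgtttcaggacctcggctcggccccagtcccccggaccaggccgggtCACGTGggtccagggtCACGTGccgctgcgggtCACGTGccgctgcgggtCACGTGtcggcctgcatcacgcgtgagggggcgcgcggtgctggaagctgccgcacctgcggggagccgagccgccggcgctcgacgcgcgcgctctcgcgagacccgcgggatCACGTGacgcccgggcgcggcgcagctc
This stretch holds 5 of the 6 matches. For comparison, 30 bases around a match are given for CTSA at chr20:45891298-45891327 on the plus strand and for CTSD at chr11:1763957-1763986 on the minus strand.
CTSA: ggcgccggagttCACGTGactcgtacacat
CTSD: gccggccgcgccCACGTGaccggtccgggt
The 3 genes with the word, LAMP1, CTSA and CTSD, did not pass the test of change, nor did CTSZ, which has none in this window. CTSC, which rose, has none either, and the other 3 members that passed (CTSB, CTSS and LAMP2) had no matched promoter, so that no comparison by the word can be made among the members. Of 101 companion genes with a promoter, 22 held the word (21.8%), against 10.0% of the 9926 promoters of tested genes. Among tested genes at or above 72.0 that have a promoter, the median log2 fold change was -0.05 for the 671 genes with the word and -0.01 for the 5954 without it. Of those tested genes, 22.8% with the word were lower and 20.1% higher, and without it 21.4% and 21.1%. Among the companion genes at that level, the median was -0.36 for the 9 with the word and -0.13 for the 50 without it. Of those 9, 55.6% were lower and 22.2% higher, and of those 50, 22.0% were lower and 16% higher. This difference rests on 9 genes with the word and was not tested. A match in letters is a description of the sequence and not a site of binding.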

How the data were processed

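RNA of 3 alt-LAMA3 knockout and 3 HEK293T samples was sequenced, per the labels. Per the submitters' processing notes the tools were STAR and Salmon and the build hg38, without versions or roles. The table analysed gives 6 values per gene. The authors' baseMean is read here as the mean of normalized counts over all libraries and is treated as a signal. The file header gives only its name. A deposited log2 fold change with its SE, a deposited score (the Wald statistic) and a deposited p-value with its adjusted p-value follow. Per the file headers, these are the column names that DESeq2 gives its results, while the sources used here state neither the program nor which group is on top. The adjusted p was used as deposited, at a threshold of 0.05, and matched a Benjamini-Hochberg recalculation over 13957 genes to within 3.66e-07. The table states no library depths. Relative depths can be inferred from the lowest means that many genes share, but these cannot be tied to the labelled samples.

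Computed here were 95% intervals (normal, from the SE), levels per kilobase and GC content from GENCODE 29, exon overlaps, and the alternatives given in the closing section, with Python 3.11.15, numpy 2.4.6, pandas 2.3.3, scipy 1.17.1 and matplotlib 3.10.9. The adjustments were tested on simulated data. Gene IDs were matched without version. For 9 of the 10 genes the version equalled that of GENCODE 29, and for CTSA it was older. The members and lists were chosen with earlier results of these data known. From each companion list, up to 3 called genes with the largest change and a mean of at least 72.0 were named. CTSH, CTSF, CTSK, CTSV, CTSE, CTSG, TMEM106B, CD63, CD68, GAA, PPT1, ATP6V1G1, ATP6AP2, LGMN, GGH, GM2A, AP1G1, TFEB and TFE3, and the monocyte markers at 0, were named after their values were seen. Some genes that this rule names are not reported here. Without values per sample, fits by sample, DESeq2 or edgeR fits and leaving out libraries were not run.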

Additional observations from a re-analysis of the deposited data

How the results depend on the processing

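Of the 8 alternatives only the 2 centrings change a fold change, and the 9 tested members kept their direction under both. LAMP1 and CTSZ have no value where a mean of at least 72.0 was required. The count of members lower, 2 by the deposited adjusted p, was 1 against a 1.5-fold change and 2 under the other 7 alternatives. The count of members higher, also 2, was 0 against a 1.5-fold change, 0 with Holm adjustment, 0 with errors widened 2.03-fold, and 2 under the other 5. The calls lost were those of CTSC and LAMP2 under these 3 and of CTSS against 1.5-fold; no member gained a call. Genes called in the whole table numbered 4120 by the deposited adjusted p, 653 against 1.5-fold, 1779 with Holm adjustment and 1197 with widened errors. Of the 40 called companion genes, 34, 22 and 27 lost their call under those 3 alternatives. Of those named, CTNS, ATP6V0B, FUCA1, SCPEP1 and TFEC kept it under all 3. Centring on genes of like GC content, an alternative added after the data were seen, gave LAMP2 0.10 (adjusted p = 0.0257) and CTSC 0.20 (adjusted p = 0.00498), and turned CTSH from -0.03 to 0.0095 (adjusted p = 0.930), uncalled under both. It uses a subset of 12258 genes that have a protein-coding transcript. The cause of the other differences was not tested. No paired analysis was possible because the table holds no values per sample, and for the same reason no library could be left out. Few reads limit CTSL, with at most 6.31 in all libraries together, and CTSZ. Whether this reflects depth or low expression was not tested.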
